A study of Homo sapiens with 6 samples.

Results

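The alpha-globin and beta-globin genes were examined in PC9 cells, an established human lung adenocarcinoma cell line, after an antagomir against tsRNA-5001a. Antagomirs are modified antisense oligonucleotides that bind and block a small RNA, here a tsRNA, the name for short fragments of transfer RNAs. The comparison was between 3 libraries of cells given the tsRNA-5001a antagomir (knockdown) and 3 libraries of cells given a negative control antagomir (control), and all libraries came from the PC9 line. It asked which transcripts differ when the tsRNA is blocked. The sources used here do not give the dose, the time of treatment or whether replicates were separate cultures, so p-values reflect only the variation among the libraries at hand, possibly technical. The members were taken by gene symbol: HBZ, HBM, HBA2, HBA1 and HBQ1 of the alpha cluster on chromosome 16, and HBE1, HBG2, HBG1, HBD and HBB of the beta cluster on chromosome 11. These are 10 of 58174 genes in the table. They were chosen by their counts in this same comparison, that is with the difference in HBA1 and HBA2 already known, so that difference is described below and not tested.

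Hemoglobin is a tetramer of alpha-like and beta-like globin chains, each holding a heme group that binds oxygen. Red cell precursors make these chains under erythroid transcription factors such as GATA1 and KLF1. Each cluster is read in the order of its genes during development, with embryonic genes (HBZ, HBE1) first, fetal HBG1 and HBG2 next in the beta cluster, and HBA1, HBA2 and HBB in adult red cells. In the lung, hemoglobin RNA has been described in alveolar epithelial cells as well as in red cells.

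Total gene counts ran from 32342017 to 40066223 in knockdown libraries and from 34623672 to 39615278 in control libraries. Genes with at least 1 count numbered 27359 to 28659 in knockdown libraries and 25729 to 26301 in control libraries. A set of 8 epithelial lung adenocarcinoma markers was present, with mean levels between 26.4 TPM and 5122 TPM over the 6 libraries. This does not hold for every such marker. In the list of 13 used below, SFTPB, NKX2-1 and NAPSA had the fewest reads. SFTPB had 0 counts in each knockdown library and 0, 0 and 2 counts in the controls. NAPSA had 74, 47 and 101 counts in the knockdown libraries and 97, 57 and 52 counts in the controls. The counts of NKX2-1 are given below. The tsRNA itself is not measured by gene counts.

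The sequences matter here because HBA1 and HBA2 are near-identical copies. Below are the first 60 coding bases of 4 genes of the alpha cluster, on the plus strand, from GENCODE 29 on GRCh38, with capitals at bases that differ from HBA1 at the same distance from the start codon.
HBA1 (chr16:176717-176776): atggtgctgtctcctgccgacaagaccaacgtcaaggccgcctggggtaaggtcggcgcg
HBA2 (chr16:172913-172972): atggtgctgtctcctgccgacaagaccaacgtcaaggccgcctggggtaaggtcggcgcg
HBZ (chr16:152910-152969): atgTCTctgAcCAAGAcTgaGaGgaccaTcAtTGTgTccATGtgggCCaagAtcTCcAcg
HBQ1 (chr16:180487-180546): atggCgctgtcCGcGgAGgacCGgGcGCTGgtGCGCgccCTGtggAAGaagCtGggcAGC
HBA2 differed from HBA1 at 0 of these 60 bases, HBZ at 27 and HBQ1 at 28. Over the whole coding sequence of 426 bases before the stop codon, HBA2 and HBA1 were 100% identical. The identity with HBA1 was 73.0% for HBQ1, 68.5% for HBZ and 62.2% for HBM, and it ran from 56.0% to 58.5% for the genes of the beta cluster. Of 100-base windows of the spliced HBA1 transcript, 79.7% also occurred in the HBA2 transcript, whereas 0% of the windows of HBQ1 or HBZ occurred in HBA1. How the authors assigned reads that match both copies is not given, so the separate values of HBA1 and HBA2 are uncertain and their sum is the firmer quantity. In the beta cluster HBG1 and HBG2 were 99.5% identical over their coding sequence.

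HBA1 and HBA2, which encode the same adult alpha-globin chain, were the members with more than a few reads, and nearly all of those reads came from the knockdown libraries. HBA1 (ENSG00000206172; chromosome 16, 176680 to 177522, plus strand) had 148, 63 and 159 counts in knockdown libraries 1, 2 and 3, against 1, 0 and 0 counts in control libraries 1, 2 and 3. HBA2 (ENSG00000188536; chromosome 16, 172847 to 173710, plus strand) had 108, 53 and 121 counts in the knockdown libraries, against 1, 0 and 0 counts in the controls. Every knockdown library lay above every control library for both genes, and knockdown library 2 had the fewest reads of the 3. In these bulk libraries, low expression in many cells and high expression in a few cells cannot be told apart. The sum of both genes was 256, 116 and 280 counts in the knockdown libraries, against 2, 0 and 0 counts in the controls. As CPM, counts scaled by the TMM-corrected library total, the sum was 5.58 ± 1.88 CPM in knockdown and 0.0178 ± 0.0309 CPM in control (SD, n = 3 each). The ratio of pooled reads, knockdown over control, was 307 with an exact 95% interval of 84.7 to 2543, which covers counting error only and rests on 2 control reads.

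**Figure D1:**
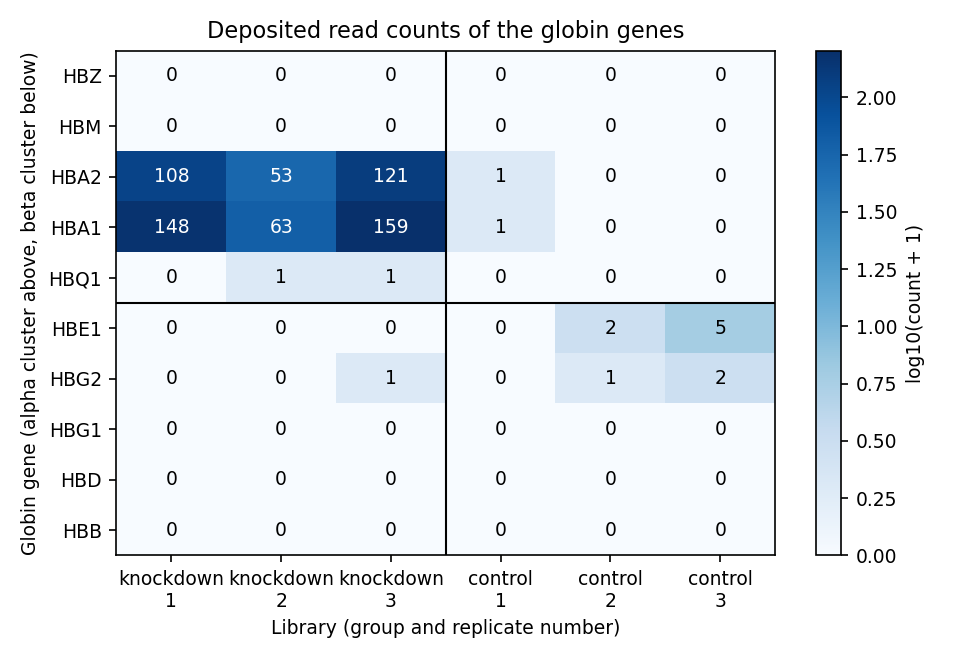
Deposited read counts of the 10 globin genes (rows) in each library (columns, knockdown left of control), printed in each cell and shaded by log10(count + 1). HBA1 and HBA2 hold 53 to 159 counts in each knockdown library and at most 1 in each control library, and every other cell holds at most 5 counts.

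In the fit over all genes HBA1 had a log2 fold change of 7.97 (standard error 0.68), and HBA2 one of 7.59 (standard error 0.66). With controls at or near 0, these values depend on the small count added in fitting and are not bounds. The standard errors are derived from the test statistic and understate this. Leaving out control library 1 moved the log2 fold change of HBA1 to 9.87. They ranked 18 and 25 among the 19040 genes tested by log2 fold change. Of the 10 globin genes, 2 passed the filter on low counts, and both were past the threshold of the fit, an adjusted p of 0.05 with edgeR's quasi-likelihood test, where 1.17% of all tested genes were (1.1% higher in knockdown and 0.0735% lower). CPM was higher in every knockdown library than in every control library for 13.4% of tested genes. Because the genes were chosen for this difference, and because they passed the filter through the knockdown libraries, these counts carry no support.

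As deposited TPM, which divides by gene length, HBA1 was at 12.2, 6.34 and 12.4 TPM in the knockdown libraries, against 0.0651, 0 and 0 TPM in the controls. HBA2 was at 8.37, 4.79 and 8.74 TPM in the knockdown libraries, against 0.0687, 0 and 0 TPM in the controls. HBA1 thus lay above 80.6% to 85.3% of all genes of the table by TPM in the knockdown libraries. These include genes without reads, since 27359 to 28659 of the 58174 genes had at least 1 count there. HBQ1, with 1 count in knockdown library 2, already lay above 56.8% of all genes in that library. The share of HBA1 in the summed reads of HBA1 and HBA2 was 57.8% in knockdown library 1 (exact 95% interval 51.5% to 63.9%). It was 54.3% in library 2 (44.8% to 63.6%) and 56.8% in library 3 (50.8% to 62.7%). The intervals overlap each other, and that of library 2 includes an even split, but a difference between libraries was not tested. How reads that match both copies were assigned is not given, so this split cannot be read as that of separately measured genes.

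The other genes of the alpha cluster gave almost no reads. HBZ, the embryonic zeta-globin gene, and HBM, the mu-globin gene, had 0 counts in all 6 libraries. HBQ1, the theta-globin gene, which starts 3.77 kb beyond HBA1, had 0, 1 and 1 counts in the knockdown libraries and 0 in each control library. A count of 0 allows up to 3 counts, or 0.0705 to 0.0883 CPM in knockdown libraries and 0.0785 to 0.0930 CPM in control libraries. By level in knockdown libraries, the order was HBA1 at 10.3 ± 3.44 TPM, HBA2 at 7.30 ± 2.18 TPM and HBQ1 at 0.0595 ± 0.0527 TPM (SD, n = 3). Within knockdown libraries 1, 2 and 3 the TPM ratio of HBA1 over HBA2 was 1.46, 1.33 and 1.42. Across libraries HBA1 and HBA2 overlap, since the lowest HBA1 library lies below the highest HBA2 library. How shared reads were assigned is not given, so the order of this pair is uncertain. HBZ, HBM, HBA2, HBA1 and HBQ1 follow each other within 28.5 kb, so reads were seen at the adult pair and hardly at the genes on either side of it.

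The beta cluster gave 1 count in all over the knockdown libraries and 10 counts over the controls. HBB, the adult beta-globin gene, HBD, the delta-globin gene, and HBG1 had 0 counts in all 6 libraries. HBG2 had 0, 0 and 1 counts in the knockdown libraries and 0, 1 and 2 counts in the controls. HBE1, the embryonic epsilon-globin gene, had 0 counts in each knockdown library and 0, 2 and 5 counts in the controls. In the table the models of HBE1 and HBG2 span 237 kb and 393 kb and overlap 19 and 33 other genes, many of them olfactory receptor genes, so these few reads need not come from globin exons. Against 654 counts for the alpha cluster in the knockdown libraries, the beta cluster had 1. RNA of HBB, whose chain pairs with alpha-globin in adult hemoglobin, was not detectable at this depth.

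Myoglobin, the muscle oxygen-binding globin encoded by MB, was the globin gene with the highest level and was present in both groups. MB was at 70.9, 56.0 and 70.8 TPM in the knockdown libraries, against 57.1, 55.5 and 53.7 TPM in the controls. Its lowest knockdown library lies within the range of the controls, and the fit gave a log2 fold change of 0.10 (standard error 0.15, edgeR adjusted p 0.788). CYGB, the cytoglobin gene, had 11, 8 and 31 counts in knockdown libraries and 10, 5 and 5 in controls and was below the filter. NGB, the neuroglobin gene, had 2 counts in knockdown library 2 and 0 in the other libraries. ADGB, the pseudogenes HBZP1 and HBBP1 and the noncoding BGLT3 had 0 counts in all libraries. Of the 8 listed genes beyond the members, 7 were in the table and 1 was tested. Of these, 0 were called, where 1.17% of all tested genes were called.

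**Figure D2:**
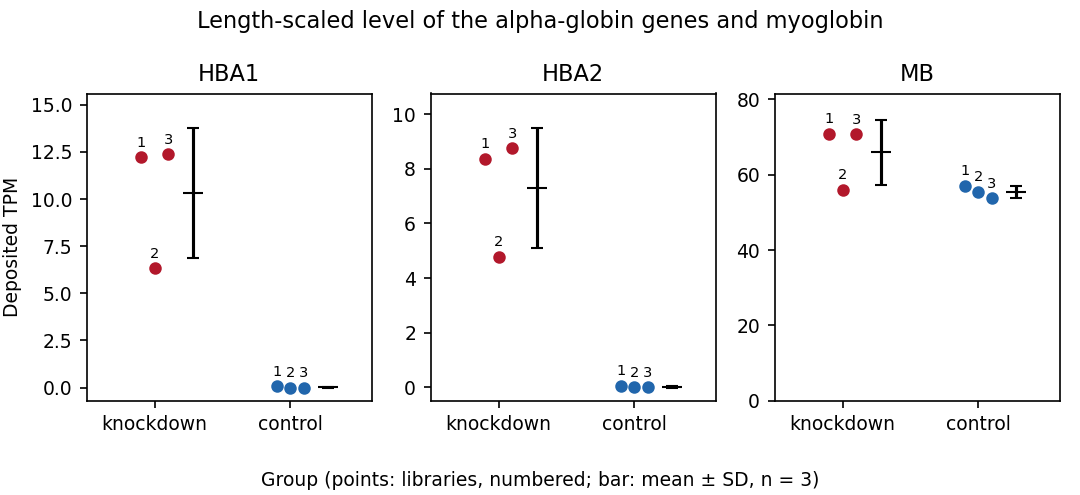
Deposited TPM of HBA1, HBA2 and MB in each library (numbered points), with mean ± SD of 3 libraries, knockdown left of control. HBA1 and HBA2 lie between 4.79 and 12.4 TPM in knockdown and at most at 0.0687 TPM in control. MB lies between 56.0 and 70.9 TPM in knockdown and between 53.7 and 57.1 TPM in control.

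The genes next to the alpha cluster did not pass the test. Within 250 kb of its ends the table holds 33 other genes, of which 18 were tested, and 0 rose and 0 fell (edgeR, lowest adjusted p 0.313), where 1.17% of all tested genes were called. An unadjusted p under 0.05 was reached by 0 of the 18, against 16.5% of all tested genes (3138 of 19040), and DESeq2 also called 0 of them. Their log2 fold changes ran from -0.48 to 0.71 with a median of -0.18, beside 0.05 for all tested genes. NPRL3, a gene of the amino acid sensing complex GATOR1 whose introns hold the distal alpha-globin enhancers, ends 13.8 kb before the cluster. It was at 54.9 ± 11.0 CPM in knockdown and 55.1 ± 8.40 CPM in control (log2 fold change -0.00, standard error 0.18, edgeR adjusted p 0.993). LUC7L, a splicing factor gene 7.79 kb beyond the cluster, was at 20.9 ± 1.73 CPM in knockdown and 21.5 ± 3.86 CPM in control (log2 fold change -0.04, standard error 0.17, edgeR adjusted p 0.930).

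Over the beta cluster and within 250 kb of its ends 68 other genes were listed, 53 of them with 0 counts in all libraries. The cluster spans 420 kb here because the long HBG2 model sets its far end. The tested genes UBQLNL, TRIM6, TRIM6-TRIM34 and TRIM34 overlap that model, so they need not lie near globin exons. Of 6 tested, 0 rose and 0 fell (edgeR, lowest adjusted p 0.343), 0 had an unadjusted p under 0.05, and DESeq2 called 0, beside 1.17% of all tested genes called and 16.5% under that p. Their log2 fold changes ran from -1.50 for TRIM6-TRIM34 to 1.29 for TRIM22, both named after their values were seen, with a median of 0.14. TRIM6-TRIM34, a read-through gene whose counts are uncertain because it overlaps its parent genes, had 93, 0 and 0 counts in knockdown libraries and 0, 118 and 127 in controls. TRIM5, an antiviral gene and the nearest tested gene outside the cluster, lies 17.8 kb beyond the end set by the HBG2 model. It was at 16.9 ± 0.950 CPM in knockdown and 16.5 ± 5.73 CPM in control (log2 fold change 0.04, edgeR adjusted p 0.955).

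**Figure D3:**
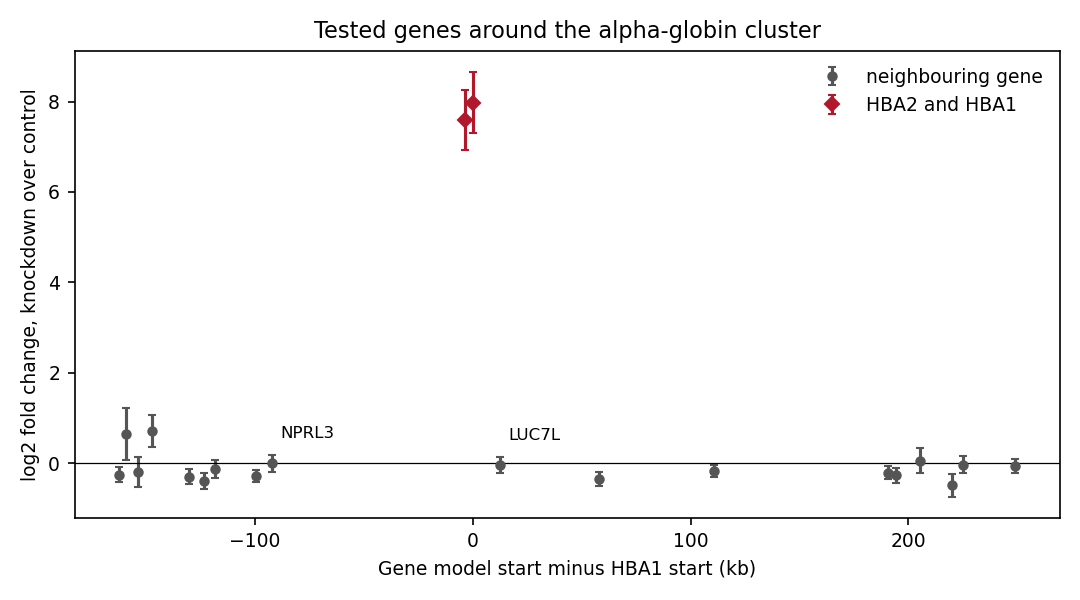
Log2 fold change, knockdown over control, of HBA2, HBA1 and the 18 tested neighbours against the distance of each gene model's start from the HBA1 start in kb. Bars are standard errors derived from the test statistic, and those of HBA2 and HBA1 rest on controls at or near 0 counts. HBA2 and HBA1 stand at 7.59 and 7.97, and the neighbours lie between -0.48 and 0.71.

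Markers of red cells were nearly absent from both groups. Of 10 defining erythroid markers, AHSP, HEMGN and RHAG were among those with 0 counts in all libraries. AHSP encodes the chaperone of free alpha-globin. Summed over the 10 markers there were 19, 13 and 11 counts in the knockdown libraries, against 5, 1 and 0 counts in the controls, or 0.258 to 0.502 CPM against 0 to 0.134 CPM. In the knockdown libraries this came from EPB42 (17, 2 and 0 counts), KLF1 (0, 11 and 0), GATA1 (2, 0 and 7) and SLC4A1 (0, 0 and 4), all at 0 in the controls. No library held reads of all 4, and GATA1 was at 0 in knockdown library 2, where HBA1 had 63 counts. ALAS2, the erythroid enzyme of heme synthesis, was at 0 in knockdown libraries and had 5, 1 and 0 counts in the controls. The part of these few marker reads in the level of HBA1 and HBA2 was not tested. Over the wider list of 29 red cell markers, 13 were tested, and 0 rose and 0 fell (1 had an unadjusted p under 0.05 and DESeq2 called 0), beside 1.17% of all tested genes called and 16.5% under that p. The summed level of the list was 167 to 179.6 CPM in knockdown libraries and 169 to 183 CPM in controls. The most abundant of them was EPB41, a membrane skeleton gene also made outside red cells, at 38.9 ± 3.20 CPM in knockdown and 38.0 ± 2.39 CPM in control (edgeR adjusted p 0.920). DMTN, which encodes the actin-bundling protein dematin, was at 21.6 ± 3.94 CPM in knockdown and 27.8 ± 1.28 CPM in control (edgeR adjusted p 0.327). Below the filter, KEL, which encodes the Kell blood group antigen and was named after its values were seen, had 2, 7 and 5 counts in knockdown libraries and 0 in each control.

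Among 21 activators of globin genes in red cells, 16 were tested and 0 passed, with a median log2 fold change of 0.05, beside 0.05 for all tested genes. An unadjusted p under 0.05 was reached by 2 of the 16, against 16.5% of all tested genes, and DESeq2 called 0, while 1.17% of all tested genes were called. GATA1 was as given above, TAL1 had 2 counts in control library 3 alone, LYL1 had 0 throughout, and GFI1B had 0, 4 and 13 counts in knockdown libraries and 0 in controls. MAFG, a small MAF partner of NFE2-type factors, was at 169 ± 9.17 CPM in knockdown and 139.5 ± 2.17 CPM in control (log2 fold change 0.27, edgeR adjusted p 0.263). NFE2L1, which encodes such a factor, was at 127 ± 10.1 CPM in knockdown and 90.8 ± 46.2 CPM in control (edgeR adjusted p 0.532).

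Of 28 repressors and switching factors of globin genes, 25 were tested, 1 rose and 0 fell. This is 1 of 25, where 1.17% of all tested genes were called. An unadjusted p under 0.05 was reached by 7 of the 25, against 16.5% of all tested genes. The median log2 fold change was 0.02. LIN28A, an RNA-binding protein that blocks maturation of let-7 microRNAs, rose with a log2 fold change of 1.90 and a standard error of 0.33 (edgeR adjusted p 0.0399). It had 55, 91 and 84 counts in the knockdown libraries and 20, 14 and 25 counts in the controls. The groups do not overlap, which with knockdown higher held for 13.4% of all tested genes. LIN28A did not pass when any of the 6 libraries was left out, where its edgeR adjusted p ran from 0.0560 to 0.139. Its paralog LIN28B and the fetal globin repressor gene BCL11A, like IKZF1, had 0 counts in all libraries. ATF4, the transcription factor of the integrated stress response, was at 677 ± 59.7 CPM in knockdown and 830 ± 47.3 CPM in control (log2 fold change -0.29, edgeR adjusted p 0.242).

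Genes that make and move heme did not pass the test. Of 18 listed, 17 were tested, 0 rose and 0 fell, where 1.17% of all tested genes were called. Of the 17, 2 had an unadjusted p under 0.05, against 16.5% of all tested genes, and DESeq2 called 0. In this list 16 had a log2 fold change below 0, with a median of -0.18 beside 0.05 for all tested genes. ALAS1, the first enzyme of heme synthesis outside red cells, was at 92.8 ± 3.40 CPM in knockdown and 93.9 ± 2.85 CPM in control (edgeR adjusted p 0.956). TMEM14C, a mitochondrial carrier of porphyrins, was at 85.5 ± 3.75 CPM in knockdown and 97.7 ± 9.81 CPM in control (edgeR adjusted p 0.472).

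Of 22 genes of heme breakdown and iron handling, 19 were tested and 0 passed, with a median log2 fold change of -0.06. An unadjusted p under 0.05 was reached by 5 of the 19, against 16.5% of all tested genes, and DESeq2 called 0, while 1.17% of all tested genes were called. The ferritin light chain gene FTL was at 4099.6 ± 379.6 CPM in knockdown and 5506 ± 583 CPM in control (log2 fold change -0.43, edgeR adjusted p 0.135). The heavy chain gene FTH1 was at 3431 ± 316 CPM in knockdown and 3880.4 ± 417 CPM in control (edgeR adjusted p 0.476). HMOX1, which encodes heme oxygenase and was named after its values were seen, was at 51.4 ± 5.35 CPM in knockdown and 37.1 ± 2.76 CPM in control (log2 fold change 0.47, edgeR adjusted p 0.162).

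Epithelial markers also gave 0 calls among 12 tested of 13, with 1 unadjusted p under 0.05 and 0 called by DESeq2, beside 1.17% of all tested genes called and 16.5% under that p. The keratin gene KRT8 was at 4176 ± 975 CPM in knockdown and 4659 ± 392 CPM in control (edgeR adjusted p 0.681), and KRT18 was at 2389 ± 210.2 CPM in knockdown and 2599 ± 254 CPM in control (edgeR adjusted p 0.633). NKX2-1, a lung lineage transcription factor gene named after its values were seen, had 34, 31 and 24 counts in knockdown libraries and 3, 12 and 0 in controls (log2 fold change 2.43, standard error 0.84, edgeR adjusted p 0.220). The groups do not overlap, which with knockdown higher held for 13.4% of all tested genes, and NKX2-1 did not pass.

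**Figure D4:**
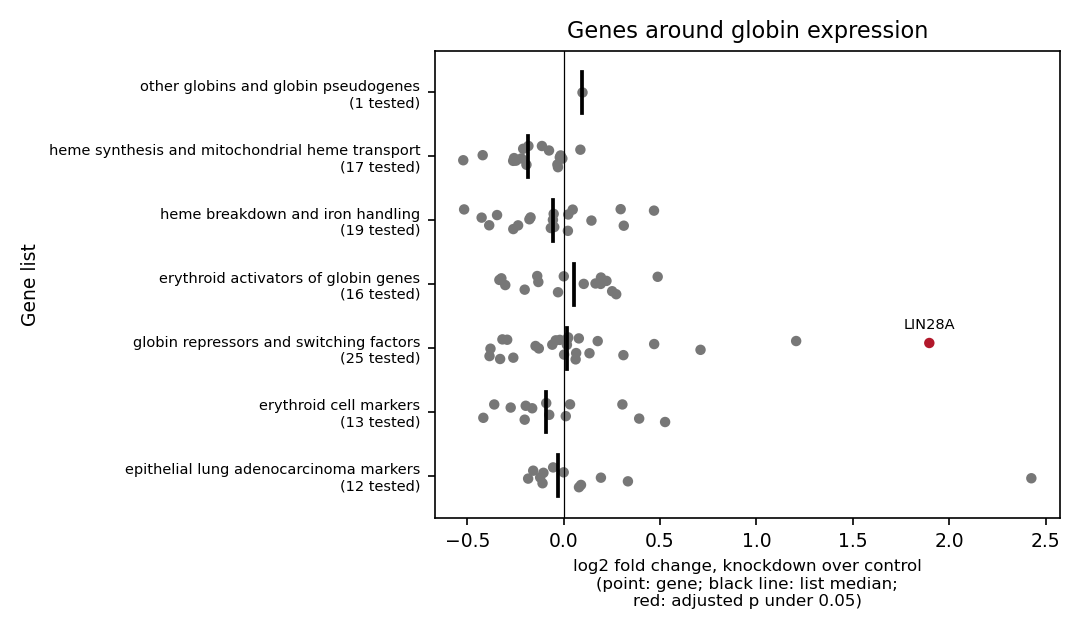
Log2 fold change, knockdown over control, of each tested gene (points) in 7 lists around globin expression, with the list median as a black line. LIN28A, in red at 1.90, is past an adjusted p of 0.05, and list medians lie between -0.18 and 0.10.

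The profile of HBA1 over the 6 libraries was compared with those of other genes by the root mean square difference of log2 CPM after each gene was centred on its own mean. HBA2 differed from HBA1 by 0.190, but the assignment of reads that match both copies is not given. This value therefore cannot be read as that of separately measured genes. The other genes compared were the 13577 with a mean of at least 1 log2 CPM, a level that HBA1 and HBA2 do not reach, so genes as low as these were not ranked. The median difference of these genes from HBA1 was 2.85, and the nearest was ARC, an immediate early gene, at 0.435. ARC had 1966, 1326 and 2295 counts in the knockdown libraries, against 31, 40 and 46 counts in the controls, so that it too was lowest in knockdown library 2. The next 4 were RFPL4A (0.720), AC012447.1 (0.720), the Notch ligand gene DLL4 (0.883) and a U1 small nuclear RNA copy (0.942). By CPM, DLL4 was also lowest in knockdown library 2, whereas RFPL4A, AC012447.1 and U1 were lowest in knockdown library 1. RFPL4A and U1 have near-identical copies, so their counts are uncertain. The measure includes the difference between the groups that chose HBA1, so it is a description only, and the log2 scale is compressed at low counts.

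A gene at 0 or 1 count in each control library and at 50 or more counts in each knockdown library was rare. There were 7 such genes, HBA1, HBA2, FRG2, LINC01447, LINC01647, AC087203.1 and AP001189.5, and 0 with the groups exchanged. This rule was set after the values were seen. It stands beside the higher number of genes with reads in the knockdown libraries given above, whose part in it was not tested.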

How the data were processed

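Per the labels' protocols, the authors checked the quality of Illumina reads, mapped them to a genome and counted those on each gene. The mapping and counting programs and any use of strand are not given in the sources at hand. Each library has deposited raw counts, TPM and FPKM for every gene. The FPKM deposited by the authors were not used. The TPM were used for levels and for an alternative log2 fold change of HBA1 and HBA2. The submitters' processing notes name hg19, but 96.8% of 57836 genes shared with GENCODE 29 have the same coordinates on GRCh38, so printed positions are those of the table, on GRCh38. Of the 10 globin genes 5 match exactly (HBA1, HBZ, HBM, HBQ1 and HBB), and the ends of the other gene models differ from GENCODE 29, HBA2 among them.

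Counts of all genes were filtered with filterByExpr (minimum count 10), scaled by TMM and tested with edgeR 4.0.16 (quasi-likelihood F-test, R 4.3.3, Benjamini-Hochberg adjustment at 0.05). The same code was checked on simulated counts. DESeq2 1.42.0 was an alternative. Standard errors are the log2 fold change over the square root of F. Log2 CPM used a prior count of 2. Intervals are exact binomial ones, and reads without molecular identifiers are not independent molecules. Coding sequences were aligned with Biopython 1.88, and figures drawn with matplotlib 3.10.9. Between libraries of a group, chi-square per degree of freedom was 29.9 to 74.0, so libraries were kept separate in the fit. Only the ratio of pooled reads merged them, so its interval leaves out this spread between libraries. Replicate numbers were not used to pair libraries.

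Members, lists and tests were chosen with earlier results of these data known. Named genes were the 10 globin genes, up to 4 called members of each list or else the most abundant up to 2, the nearest tested neighbours and the 5 nearest profiles; others were chosen after their values were seen. Some genes of the lists are not reported here.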

Additional observations from a re-analysis of the deposited data

How the results depend on the processing

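Over the whole table, 223 genes were past the threshold, against 191 with DESeq2 size factors, 319 with library size only, 172 with a stricter filter, 147 with no filter, 634 with DESeq2 and 34 with the replicate block. The count was 102, 75 and 64 without knockdown libraries 1, 2 and 3, and 114, 88 and 87 without control libraries 1, 2 and 3. Same-numbered libraries deviated from their group means with correlations of 0.00831, -0.0788 and -0.0256, so no shared deviation by number was seen. These values cannot show whether same-numbered libraries were prepared together. Of the globin repressors, LIN28A was called under 4 of 12 alternatives, and 0 genes of that list were called with no filter, with the replicate block or without any 1 library. The adjusted p of LIN28A ran from 0.00386 with DESeq2 to 0.167 with the block, and its log2 fold change from 1.64 to 2.05. The other lists and both neighbourhoods gave 0 calls under every alternative. The log2 fold change was 8.89 for HBA1 and 8.32 for HBA2 from deposited TPM. Leaving out 1 library, it ran from 7.48 to 9.87 for HBA1 and from 7.10 to 9.49 for HBA2, and the highest values were those without control library 1, where all controls are at 0. The summed level of HBA1 and HBA2, knockdown minus control, was 5.57 CPM and ran from 4.89 without knockdown library 1 to 6.55 CPM without knockdown library 2. The beta cluster difference of -0.0843 CPM was -0.0390 without control library 3 and -0.131 without control library 1. For these shifts the cause was not tested. Depth limits the globin genes other than HBA1 and HBA2, all at 7 or fewer counts per group.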
